A study of Homo sapiens with 6 samples.

Results

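The readers of N6-methyladenosine (m6A) and the insulin-like growth factor 2 mRNA-binding proteins (IGF2BP) were followed as 10 genes: IGF2BP1, IGF2BP2, IGF2BP3, YTHDF1, YTHDF2, YTHDF3, YTHDC1, YTHDC2, HNRNPA2B1 and HNRNPC. They were taken by name from a table of 19976 genes, and each name was found on 1 row. The RNA was from THP-1, an established line of human monocytic leukaemia, made macrophage-like with the phorbol ester PMA at 50 ng/ml for 48 h. In 3 libraries the cells had received an siRNA against the circular RNA hsa_circ_0004287, here called circ siRNA, and in 3 libraries a control siRNA, each at 200 nM for 48 h. Both groups then received lipopolysaccharide (LPS), a bacterial cell wall component, at 200 ng/ml for 3 h, so no library comes from unstimulated cells. The labels do not say that the 3 libraries of a group came from separate cultures, so each p-value rests on a spread between libraries that may be only technical. The circular RNA itself was not analysed here, because the poly-A gene table has no row for it, and the extent of its knockdown is therefore not shown by these values.

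m6A is the most abundant internal modification of mRNA. A methyltransferase complex built on METTL3 and METTL14 writes it, the demethylases FTO and ALKBH5 remove it, and reader proteins bind it and steer the fate of the mRNA. The YTH-domain proteins hold the methylated base in a pocket. The IGF2BP proteins use KH domains and are known for protecting bound mRNAs from decay, whereas HNRNPC and HNRNPA2B1 are nuclear RNA-binding proteins whose access to RNA is altered by the mark. IGF2BP3 is the protein partner of the circular RNA that the study discusses, so the comparison below asks whether its mRNA, or that of the related readers, differed between cells with the circ siRNA and cells with the control siRNA.

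IGF2BP1 to IGF2BP3 are known targets of the microRNA let-7, which represses fetal growth genes. The matching letters are shown because most of the other readers had none in the transcript searched. The mature let-7a is given 5′ to 3′ with its seed, bases 2 to 8, in capitals (RefSeq, GRCh38.p14, chr9:94175962-94175983, plus strand). Below it stands the first stretch of each 3′ UTR (GENCODE 29 transcripts, GRCh38) that holds CTACCTC, the complement of that seed, in capitals. HMGA2, a chromatin protein of fetal tissue listed further on among the described IGF2BP targets, is added for comparison.
hsa-let-7a-5p: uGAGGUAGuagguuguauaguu
IGF2BP1, chr17:49051061-49051083, plus strand: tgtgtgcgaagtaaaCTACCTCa
IGF2BP2, chr3:185644220-185644242, minus strand: aacacacagaagaagCTACCTCa
IGF2BP3, chr7:23311795-23311817, minus strand: tgcatttttactcaaCTACCTCa
HMGA2, chr12:65963298-65963320, plus strand: gccaacgttcgatttCTACCTCa
The 3′ UTR held 4 such matches in IGF2BP1, 1 in IGF2BP2 and 1 in IGF2BP3. HNRNPA2B1 had 1 and HMGA2 had 4, while the YTHDF, YTHDC and HNRNPC transcripts had 0. A single transcript per gene was searched, and the 3′ UTRs differed in length. That of YTHDF3 had 249 bases and that of HNRNPC 610, against 6206 in IGF2BP1, so a count of 0 also depends on how much sequence was searched. Over 19493 genes with a 3′ UTR, 8.33% hold at least 1 match. A match is a string of letters and not a tested site, and let-7 was not measured in this poly-A data set.

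The IGF2BP transcripts also have long 3′ UTRs. That of IGF2BP1 spans 6206 bases, that of IGF2BP3 2153 and that of IGF2BP2 1792, against a median of 828 over the listed genes. This is not particular to the family, as YTHDC2 has 1810 bases, HNRNPA2B1 1747 and YTHDF1 1279. YTHDF2, YTHDF3, YTHDC1 and HNRNPC lie below the median in the single transcript taken per gene. The YTHDF3 transcript has 2370 bases of 6163 exonic bases of the gene, and that of HNRNPC 1714 of 7309. Longer 3′ UTRs in other transcripts of these genes were not examined. The pentamer GGACT, a frequent form of the m6A consensus, occurred 1.36 times per kilobase in the IGF2BP2 transcript, 1.09 times in IGF2BP1 and 0.471 times in IGF2BP3. The median over the listed genes was 0.934 per kilobase. YTHDF1 and YTHDC1 lay lowest among the readers, at 0.303 and 0.308 per kilobase.

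The 10 readers spanned a wide range of mRNA levels, and their order was nearly the same in both groups. Levels are given as CPM, the standard count relative to library size, here with library sizes scaled by the TMM method, divided by the gene's length in kilobases. HNRNPC, which binds uridine tracts in nascent transcripts, was highest at a mean of 82.7 CPM per kilobase in circ siRNA cells and 86.2 in control siRNA cells. HNRNPA2B1, a nuclear reader also known for microRNA processing, followed at 66.3 in circ siRNA cells and 64.0 in control siRNA cells. HNRNPC stood above 97.6% of all listed genes and HNRNPA2B1 above 96.8%.

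The cytoplasmic YTHDF proteins came next. YTHDF2, which recruits the CCR4-NOT deadenylase to methylated mRNA, averaged 24.9 CPM per kilobase in circ siRNA cells and 23.9 in control siRNA cells. YTHDF3, which works with the other YTHDF proteins, averaged 19.2 in circ siRNA cells and 17.0 in control siRNA cells. YTHDF1, best known for aiding translation, averaged 17.0 in circ siRNA cells and 17.3 in control siRNA cells. YTHDF1 and YTHDF3 were the only neighbours in the order whose ranges overlapped: YTHDF3 was the higher of the pair in 4 of 6 libraries.

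IGF2BP2, the family member expressed in many adult tissues, averaged 11.2 CPM per kilobase in circ siRNA cells and 11.4 in control siRNA cells. YTHDC1, the nuclear reader known for splicing and export, averaged 8.44 in circ siRNA cells and 8.23 in control siRNA cells, and YTHDC2, an RNA helicase known for its part in meiosis, 2.19 in circ siRNA cells and 1.87 in control siRNA cells. IGF2BP3 and IGF2BP1, described as oncofetal because they are low in most adult tissues, were at the bottom. IGF2BP3 averaged 0.095 CPM per kilobase in circ siRNA cells and 0.0543 in control siRNA cells, and IGF2BP1 averaged 0.00656 in circ siRNA cells and 0.00622 in control siRNA cells. The authors' FPKM values put all 10 genes at the same rank. They derive from the same counts and lengths and cannot change the order within a library, so this is no independent check. The order depends on dividing by length. In CPM alone, circ siRNA cells had 615 for HNRNPA2B1 and 605 for HNRNPC, and control siRNA cells 593 and 630. YTHDF3 lay above YTHDF2 in CPM alone, at 118 against 93.0 in circ siRNA cells and 105 against 89.1 in control siRNA cells.

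**Figure D1:**
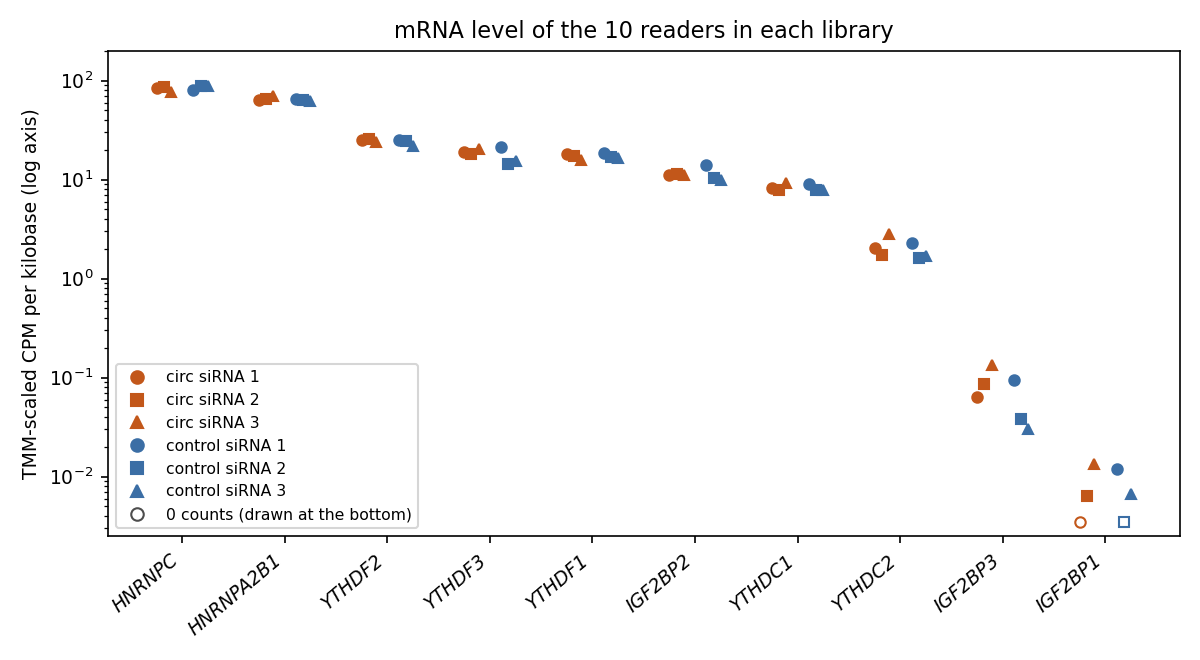
mRNA level of the 10 readers in each of 6 libraries, as TMM-scaled CPM per kilobase on a log axis; orange points are circ siRNA libraries, blue points are control siRNA libraries, and open points at the bottom are libraries with 0 counts. HNRNPC and HNRNPA2B1 lie highest, IGF2BP3 and IGF2BP1 lowest, and for every gene the orange and blue points overlap in range.

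The starts of IGF2BP2 and IGF2BP3 are printed because these paralogs differ so much in level. Each window runs from 250 bases before to 50 bases after an annotated gene start (RefSeq, GRCh38.p14, minus strand of the chromosome, 5′ to 3′ of the gene), with capitals marking GGGCGG (a GC box) and CACGTG (an E-box) on either strand, overlapping matches included.
IGF2BP2, chr3:185824993-185825292, minus strand: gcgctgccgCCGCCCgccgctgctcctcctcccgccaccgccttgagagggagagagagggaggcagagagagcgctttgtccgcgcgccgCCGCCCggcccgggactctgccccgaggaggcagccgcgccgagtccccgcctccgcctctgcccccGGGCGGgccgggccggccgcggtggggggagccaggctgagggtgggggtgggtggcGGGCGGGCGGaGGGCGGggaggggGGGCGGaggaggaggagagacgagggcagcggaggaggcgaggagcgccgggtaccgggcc
IGF2BP3, chr7:23470442-23470741, minus strand: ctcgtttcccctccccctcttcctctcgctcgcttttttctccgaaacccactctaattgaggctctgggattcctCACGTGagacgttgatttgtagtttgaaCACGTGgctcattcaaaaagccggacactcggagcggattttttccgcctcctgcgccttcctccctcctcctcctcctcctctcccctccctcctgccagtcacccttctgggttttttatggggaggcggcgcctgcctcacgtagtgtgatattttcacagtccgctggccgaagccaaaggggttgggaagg
The IGF2BP2 window held 7 GC boxes, 0 E-boxes and 38 CpG dinucleotides. A further IGF2BP2 start in the same RefSeq set, not printed, had 0 GC boxes, 0 E-boxes and 3 CpG dinucleotides in its window. The IGF2BP3 window held 0 GC boxes, 2 E-boxes and 17 CpG dinucleotides. Over 35116 windows of this length, 45.0% held a GC box and 7.26% an E-box, and the median was 14 CpG dinucleotides. These counts describe the letters of the windows and say nothing about binding in these cells.

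Before the comparison, the libraries themselves were set side by side. They held 14793902 to 16736972 counts, so that 3 counts, the limit set here for a count of 0, correspond to 0.179 to 0.203 CPM. This limit and the marker levels are CPM of the library totals, without TMM scaling. Macrophage and monocyte genes were present, with CSF1R at 796 CPM in circ siRNA cells and 884 in control siRNA cells and CD14 at 214 in circ siRNA cells and 218 in control siRNA cells, whereas CD68, FCGR3A and MRC1 were each below 1 CPM in both groups. LYZ was low too, at 4.89 CPM in circ siRNA cells and 5.02 in control siRNA cells. The first principal component, with 53.4% of the variance, did not follow the groups. It placed circ siRNA library 3 (-38.4) and control siRNA library 1 (-23.2) at one end and control siRNA libraries 2 and 3 (30.4 and 21.3) at the other, with circ siRNA libraries 1 and 2 between (-1.51 and 11.5). The second component, with 16.9% of the variance, did separate the groups. Circ siRNA libraries 1 to 3 lay at 18.5, 18.6 and -2.38, and control siRNA libraries 1 to 3 at -13.2, -13.6 and -7.92. A gene's deviation in a library also ran with gene length, with a Spearman coefficient across genes of 0.386 in circ siRNA library 3 and 0.465 in control siRNA library 1, against -0.436 and -0.399 in control siRNA libraries 2 and 3. Genes are not independent replicates, so these coefficients are descriptions.

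None of the readers differed between circ siRNA and control siRNA cells beyond the spread between libraries. Of the 9 that passed the filter on low counts, 0 had a Benjamini-Hochberg adjusted p under 0.05 in edgeR's quasi-likelihood test, against 0.00802% of the 12469 genes tested. At an unadjusted p under 0.05 the count was again 0 of 9, beside 6.45% of all tested genes. DESeq2 called 0 of them too, beside 0.639% of its genes, and limma-voom called 0 readers and 0.0% of all genes. With offsets for gene length 0 readers were called, beside 0.0481% of genes, and with offsets for length and GC content 0, beside 0.0962%. For 0 of the 9 did the circ siRNA libraries lie wholly above or below the control siRNA libraries, as they did for 12.5% of all tested genes. In bulk RNA, a lower share of expressing cells and less RNA per cell cannot be told apart.

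IGF2BP3 was too scarce for a firm comparison. It had 9, 12 and 18 counts in the circ siRNA libraries, against 14, 5 and 4 counts in the control siRNA libraries, or 39 against 23 in all. The highest library belonged to the circ siRNA group and the lowest to the control siRNA group, but control siRNA library 1 lay above 2 of the 3 circ siRNA libraries. The level averaged 0.811 ± 0.313 CPM in circ siRNA cells and 0.464 ± 0.296 CPM in control siRNA cells (SD, n = 3 each). The log2 fold change, circ siRNA over control siRNA, was 0.76 with a standard error of 0.53 (adjusted p = 0.877, edgeR quasi-likelihood test). Its 95% interval of -0.45 to 1.97 runs from a 0.733-fold to a 3.92-fold level, so no difference was detectable at this depth, and differences of either direction within those bounds could not be seen.

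The value for IGF2BP3 leaned on single libraries. Leaving out control siRNA library 1 gave a log2 fold change of 1.44 (adjusted p = 0.232, edgeR), whereas leaving out circ siRNA library 3 gave 0.43 (adjusted p = 0.984). Over all alternatives in which it was tested the log2 fold change stayed positive, from 0.43 to 1.44, with adjusted p from 0.232 to 0.9999. Of its exonic bases in GENCODE 29, 1521 of 8511 (17.9%) are shared with MALSU1, a mitochondrial ribosome assembly factor on the opposite strand. MALSU1 had 10.8, 12.0 and 8.72 CPM in the circ siRNA libraries and 9.18, 16.0 and 13.7 CPM in the control siRNA libraries, a log2 fold change of -0.30 (adjusted p = 0.882, edgeR). Whether counting used strand is not given in the sources used here, and the part of MALSU1 reads in the IGF2BP3 counts was not tested.

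IGF2BP2, the paralog with nearly all of the family's mRNA signal in these cells, showed almost equal means. Protein was not measured in these libraries. It had 53.1, 54.0 and 52.5 CPM in the circ siRNA libraries, against 65.8, 49.1 and 47.1 CPM in the control siRNA libraries. The circ siRNA libraries lay close together, between control siRNA library 1 above them and control siRNA libraries 2 and 3 below. The means were 53.2 ± 0.762 CPM in circ siRNA cells and 54.0 ± 10.25 CPM in control siRNA cells (SD, n = 3 each), a log2 fold change of -0.02 with a 95% interval of -0.37 to 0.32 (adjusted p = 0.979, edgeR). The sign turned when control siRNA library 1 was left out (0.15) and when it was left out together with circ siRNA library 3 (0.16, adjusted p = 0.236).

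IGF2BP1 was at the limit of detection. The circ siRNA libraries held 0, 1 and 2 counts and the control siRNA libraries 2, 0 and 1 counts, 3 in each group. It did not pass the filter and has no test. The limit of 3 counts set for a library at 0 covers counting error only. Without TMM scaling it corresponds to 0.181 CPM in circ siRNA library 1 and 0.188 CPM in control siRNA library 2. The upper end of the 95% Poisson interval for 0 counts is higher, at 3.69 counts.

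Within the IGF2BP family, IGF2BP2 therefore made up nearly all of the per-length signal: 99.4%, 99.2% and 98.7% in the circ siRNA libraries and 99.2%, 99.6% and 99.6% in the control siRNA libraries. IGF2BP3 held 0.564%, 0.75% and 1.2% in the circ siRNA libraries and 0.673%, 0.37% and 0.304% in the control siRNA libraries. The difference in means was 0.39 percentage points for IGF2BP3 and -0.397 for IGF2BP2, each with an exact two-sided permutation p of 0.2 (0.4 after Benjamini-Hochberg adjustment over the 6 shares tested in both families). With 3 libraries against 3, the smallest p this test can give is 0.1, so it cannot reach 0.05. Without circ siRNA library 3 the differences were 0.208 points for IGF2BP3 and -0.185 for IGF2BP2.

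**Figure D2:**
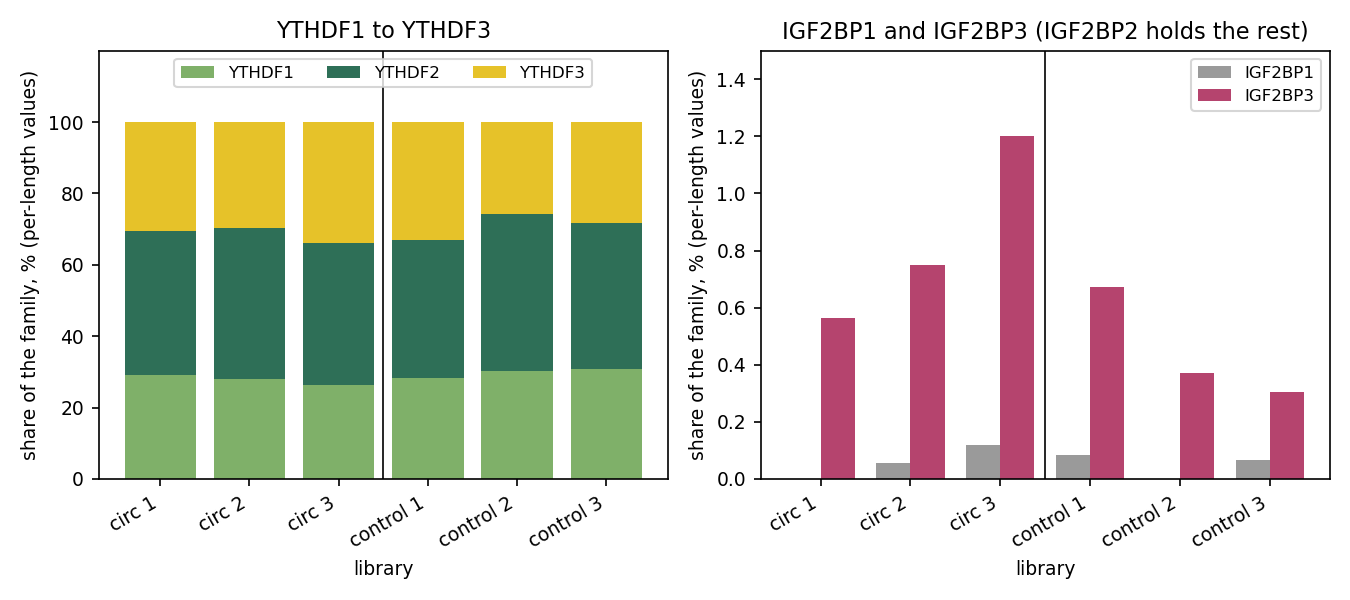
Share of each paralog in the per-length signal of its family, in percent, for the 3 circ siRNA libraries (left of the line) and the 3 control siRNA libraries (right of it); the left panel stacks YTHDF1 to YTHDF3, the right panel shows the small shares of IGF2BP1 and IGF2BP3, with IGF2BP2 holding the rest. The 3 YTHDF paralogs hold between 25.7% and 44.0% each, while IGF2BP3 reaches at most 1.2% of its family.

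Among the YTHDF proteins, YTHDF3 had the largest difference, and it too was within the spread of the control siRNA group. It had 117, 113 and 125 CPM in the circ siRNA libraries, against 132, 88.4 and 94.9 CPM in the control siRNA libraries. The 3 circ siRNA libraries lay above control siRNA libraries 2 and 3 and below control siRNA library 1. The means were 118 ± 6.16 CPM in circ siRNA cells and 105.0 ± 23.4 CPM in control siRNA cells (SD, n = 3 each), a log2 fold change of 0.17 with a 95% interval of -0.21 to 0.55 (adjusted p = 0.886, edgeR).

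YTHDF3 was also the only reader called under any setting run. Without circ siRNA library 3 and control siRNA library 1, which leaves 2 libraries against 2, its log2 fold change was 0.33 (adjusted p = 0.0144, edgeR). Those 2 libraries were picked from these same values, and the libraries left are the most alike of each group. The spread in that fit is narrowed by this choice, so its adjusted p-values and calls, here and below, are descriptions. In that fit 1 of 8 tested readers was called, beside 14.8% of all 12455 genes tested there, so the share among the readers was near that of the background. Without control siRNA library 1 alone the value was 0.37 (adjusted p = 0.185), and without control siRNA library 2 alone it was 0.06 (adjusted p = 0.9999).

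YTHDF1 and YTHDF2 lay close together in the 2 groups. YTHDF1 had 57.6, 55.5 and 50.6 CPM in the circ siRNA libraries and 58.8, 54.1 and 53.3 CPM in the control siRNA libraries, a log2 fold change of -0.02 (95% interval -0.29 to 0.24). YTHDF2 had 93.3, 96.9 and 88.7 CPM in the circ siRNA libraries and 93.7, 91.6 and 82.1 CPM in the control siRNA libraries, a log2 fold change of 0.06 (95% interval -0.20 to 0.32). The groups overlapped for both genes, with adjusted p = 0.975 for YTHDF1 and 0.924 for YTHDF2 in edgeR's test.

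The shares of the YTHDF paralogs were compared in the same way, with the same floor on p. YTHDF2 held 40.8 ± 1.27% of the per-length signal in circ siRNA cells and 41.2 ± 2.68% in control siRNA cells (SD, n = 3 each). YTHDF3 held 31.4 ± 2.18% in circ siRNA cells and 29.1 ± 3.66% in control siRNA cells, and YTHDF1 held 27.8 ± 1.32% in circ siRNA cells and 29.8 ± 1.3% in control siRNA cells. The exact two-sided permutation p was 0.8 for YTHDF2, 0.4 for YTHDF3 and 0.2 for YTHDF1, with adjusted values of 0.96, 0.6 and 0.4 over the 6 shares. This test cannot reach 0.05 and does not show that the shares are alike. The YTHDF1 share differed by -1.95 percentage points in the means, circ siRNA minus control siRNA, and by -2.68 to -1.23 points when 1 library was left out. The YTHDF3 share differed by 2.36 points, with 0.691 without control siRNA library 2 and 4.32 without control siRNA library 1. The order of the paralogs depends on dividing by length. In shares of raw counts YTHDF3 was largest, at 44.5% in circ siRNA cells and 41.8% in control siRNA cells. YTHDF2 then held 35.0% in circ siRNA cells and 35.9% in control siRNA cells, and YTHDF1 20.5% and 22.3%.

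The YTHDC readers differed in how much they varied. YTHDC1 had 58.1, 55.3 and 64.8 CPM in the circ siRNA libraries and 63.9, 55.2 and 54.6 CPM in the control siRNA libraries, a log2 fold change of 0.04 (95% interval -0.25 to 0.32, adjusted p = 0.954, edgeR). YTHDC2 had 22.0, 18.9 and 30.2 CPM in the circ siRNA libraries and 24.8, 17.4 and 18.3 CPM in the control siRNA libraries, a log2 fold change of 0.23 (95% interval -0.26 to 0.73, adjusted p = 0.886, edgeR). For both genes circ siRNA library 3 and control siRNA library 1 were the 2 highest, and the groups overlapped. Leaving out circ siRNA library 3 brought the YTHDC2 log2 fold change to 0.02, and leaving out control siRNA library 1 brought it to 0.41.

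The nuclear hnRNP readers were the most abundant and among the most even. HNRNPA2B1 had 596, 601 and 646 CPM in the circ siRNA libraries and 604, 594 and 583 CPM in the control siRNA libraries, a log2 fold change of 0.05 (95% interval -0.20 to 0.30, adjusted p = 0.932, edgeR). HNRNPC had 617, 630.1 and 567 CPM in the circ siRNA libraries and 590.2, 648 and 651 CPM in the control siRNA libraries, a log2 fold change of -0.06 (95% interval -0.32 to 0.21, adjusted p = 0.926, edgeR). The groups overlapped for both. HNRNPA2B1 shares 3.97% of its exonic bases with CBX3 on the opposite strand, and the 4 rows of HNRNPC-like genes in the table, HNRNPCL1 to HNRNPCL4, held 0 counts.

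Across the 9 tested readers, 6 log2 fold changes were positive and 3 negative, and 48.8% of all tested genes were positive. These signs are not firm: those of IGF2BP2, YTHDF1, YTHDC1 and HNRNPA2B1 turned in at least 1 alternative, such as offsets for gene length or leaving out 1 library. The median log2 fold change was 0.05 for the readers and -0.01 for all tested genes. The median size without regard to sign was 0.06 for the readers and 0.16 for all tested genes, and the median standard error was 0.125 for the readers and 0.192 for all tested genes. Leaving IGF2BP3 aside, the 95% intervals of the other 8 lay between -0.37 and 0.73, so a log2 fold change of 1 or -1 lay outside the interval of each of them.

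**Figure D3:**
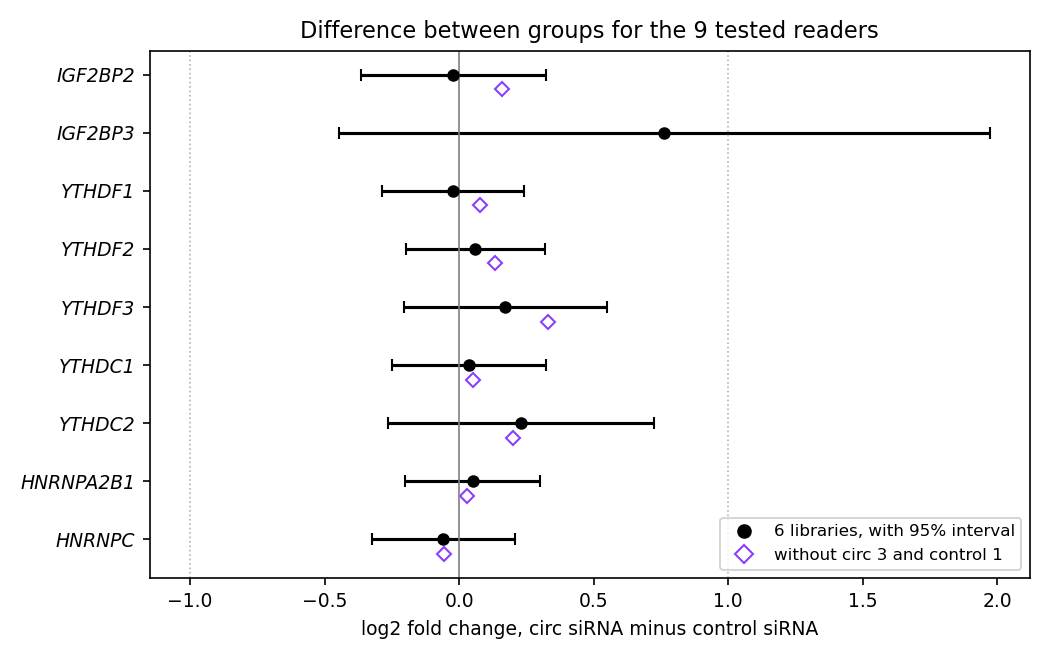
Log2 fold change, circ siRNA minus control siRNA, of the 9 tested readers; black points with 95% intervals are the fit of all 6 libraries, open diamonds are the fit without circ siRNA library 3 and control siRNA library 1, in which IGF2BP3 did not pass the filter. All 9 intervals include 0, the widest is that of IGF2BP3 (-0.45 to 1.97), and dotted lines mark a log2 fold change of -1 and 1.

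Some of the readers varied between libraries in the order of the first principal component. Circ siRNA library 3 and control siRNA library 1 were the 2 highest libraries for 5 of the 9 tested readers (IGF2BP3, YTHDF3, YTHDC1, YTHDC2 and HNRNPA2B1), an order found in 23.4% of all tested genes. Control siRNA libraries 2 and 3 were the 2 lowest for those 5 and for IGF2BP2, 6 of 9, against 19.0% of all tested genes. YTHDF1, YTHDF2 and IGF2BP2 were below their own means in circ siRNA library 3, and HNRNPC ran the other way, with its 2 highest values in control siRNA libraries 2 and 3. The part of gene length or of these libraries in the readers' values was not tested beyond the fits without them and with length offsets.

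**Figure D4:**
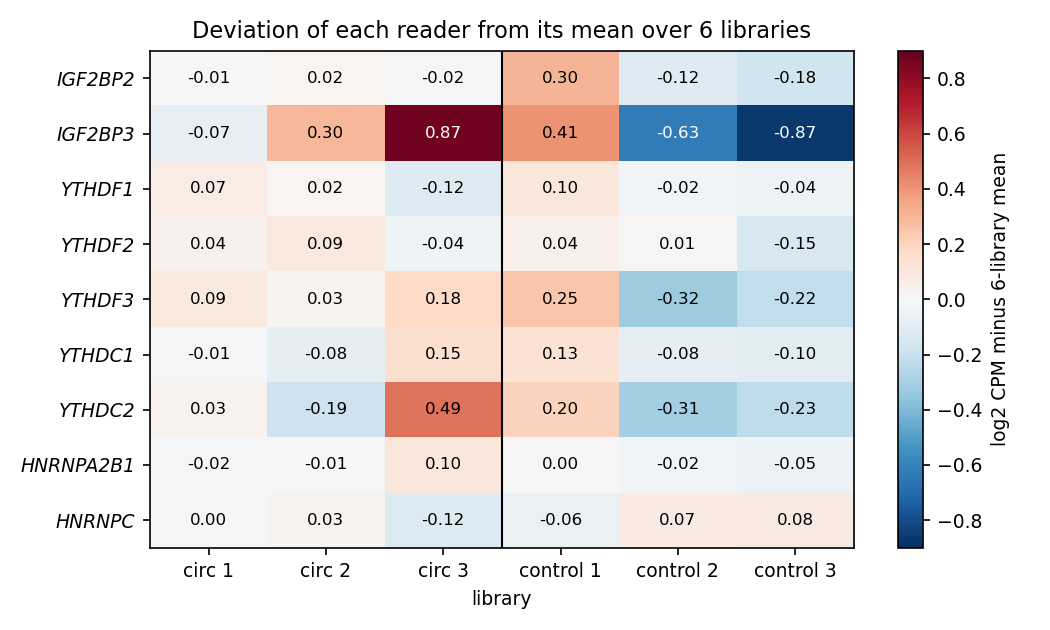
Deviation of each tested reader from its own mean over 6 libraries, as log2 CPM, with circ siRNA libraries left of the line and control siRNA libraries right of it; red is above the mean, blue below. IGF2BP3 spans 0.87 in circ siRNA library 3 to -0.87 in control siRNA library 3, YTHDC2 spans 0.49 to -0.31, and HNRNPA2B1 stays within 0.10 of its mean.

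IGF2BP3, the reader with the smallest unadjusted p (0.185, edgeR), was set against every tested gene to find those with the most similar course over the 6 libraries. The nearest by root mean square difference in centred log2 CPM were POMK (0.111), a kinase that acts on dystroglycan sugars, C9orf135 (0.121) and FBXO39 (0.125). They are scarce too, with 59, 72 and 223 counts over all libraries for POMK, C9orf135 and FBXO39 beside 62 for IGF2BP3. Likeness over 6 libraries among scarce genes is a description only.

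The rest of the m6A machinery gave the same picture. Of 14 writers and erasers tested, 0 were called higher and 0 lower in edgeR, and 7 log2 fold changes were positive and 7 negative, with a median of -0.000593. RBM15B, which helps place the methyltransferase on RNA, averaged 69.3 ± 1.96 CPM in circ siRNA cells and 60.5 ± 2.17 CPM in control siRNA cells (SD, n = 3 each), a log2 fold change of 0.20 (adjusted p = 0.861). WTAP, the adaptor that brings the complex to nuclear speckles, averaged 486 ± 28.5 CPM in circ siRNA cells and 428 ± 24.8 CPM in control siRNA cells, a log2 fold change of 0.18 (adjusted p = 0.870). For both the circ siRNA libraries lay above all control siRNA libraries, as they did for 6.64% of all tested genes. PCIF1, which methylates the adenosine next to the cap, had a log2 fold change of -0.24 (adjusted p = 0.882), which was -0.10 without circ siRNA library 3.

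Of 11 other proposed readers, 0 were called in either direction, and the median log2 fold change was 0.01. For 1 of them, G3BP1, the circ siRNA libraries lay below all control siRNA libraries, and for 0 above. FMR1, the fragile X protein, had 0.28 (adjusted p = 0.864, edgeR), G3BP1, a stress granule protein, had -0.14 (adjusted p = 0.886), and SND1, a nuclease-domain protein, had -0.10 (adjusted p = 0.889). Single libraries moved these values: FMR1 was 0.16 without control siRNA library 2, G3BP1 was -0.03 without control siRNA library 1 and SND1 was -0.06 without circ siRNA library 2. Of 23 other hnRNP and related RNA-binding proteins, 0 were called and the median was 0.02. HNRNPF, a binder of G-rich RNA, had the smallest unadjusted p among them: it averaged 143 ± 4.54 CPM in circ siRNA cells and 170.2 ± 6.89 CPM in control siRNA cells (SD, n = 3 each), a log2 fold change of -0.25 (adjusted p = 0.751, edgeR). HNRNPL and HNRNPLL, paralogs that act on alternative splicing, had 0.23 each (adjusted p = 0.864 for both). For 2 of the 23 genes, HNRNPLL among them, the circ siRNA libraries lay above all control siRNA libraries. For 3, HNRNPF among them, they lay below. Without circ siRNA library 3 and control siRNA library 1, HNRNPL was called at 0.38 (adjusted p = 0.0143, edgeR). Of all genes tested in that fit, 14.8% were called.

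Proteins through which the readers act, such as CCR4-NOT subunits, decay enzymes and splicing or export factors, showed 0 calls among 21 tested genes and a median log2 fold change of 0.03. For 4 of the 21, CNOT7 among them, the circ siRNA libraries lay below all control siRNA libraries, beside 5.87% of all tested genes. For 0 of the 21 they lay above, beside 6.64%. XRN1, the cytoplasmic 5′ to 3′ exonuclease, had 53.1, 50.3 and 93.9 CPM in the circ siRNA libraries and 55.3, 36.6 and 39.0 CPM in the control siRNA libraries. The difference, a log2 fold change of 0.59 (adjusted p = 0.777, edgeR), was 0.24 without circ siRNA library 3 (adjusted p = 0.95) and 0.46 without both that library and control siRNA library 1 (adjusted p = 0.00689). POP1, an RNase P and MRP subunit, had -0.28 (adjusted p = 0.815), and CNOT7, a CCR4-NOT deadenylase, had -0.19 (adjusted p = 0.864). CNOT1, the CCR4-NOT scaffold, named after its values were seen, had 0.26 with all 6 libraries (adjusted p = 0.912, edgeR) and was called without circ siRNA library 3 and control siRNA library 1 at 0.46 (adjusted p = 0.0249). The fit without both libraries called 14.8% of all genes tested in it.

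mRNAs that have been described as IGF2BP targets held the smallest p-values of the lists, without passing the threshold. Of 16 listed, 12 were tested. In edgeR 0 were called, 3 of 12 had an unadjusted p under 0.05, beside 6.45% of all tested genes, 4 log2 fold changes were positive and 8 negative, and the median was -0.03. The lowest log2 fold change was that of FOXM1, a cell cycle transcription factor named here after its values were seen, at -0.51 with a wide 95% interval of -1.41 to 0.40 (adjusted p = 0.885, edgeR). IGF2, LIN28B, PEG10 and MAPK4 had 0 counts in all 6 libraries. The list was chosen with earlier results of these data known, so its counts are descriptions.

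CTNNB1, which encodes beta-catenin of the Wnt pathway, had 622, 579 and 719 CPM in the circ siRNA libraries, against 503, 404 and 440.4 CPM in the control siRNA libraries. The groups did not overlap, and the means were 640.2 ± 71.9 CPM in circ siRNA cells and 449 ± 50.0 CPM in control siRNA cells (SD, n = 3 each). The log2 fold change was 0.51 with a 95% interval of 0.19 to 0.83, with an adjusted p of 0.503 in edgeR and 0.128 in DESeq2.

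HMGA2, whose 3′ UTR match to let-7 is printed above, had 140.1, 145 and 125 CPM in the circ siRNA libraries, against 209, 184 and 169 CPM in the control siRNA libraries. All circ siRNA values lay below all control siRNA values. Its log2 fold change was -0.46 (95% interval -0.75 to -0.16, adjusted p = 0.514, edgeR). MYC, the transcription factor whose mRNA is the classic IGF2BP1 ligand, had 117, 113 and 111 CPM in the circ siRNA libraries, against 135, 148 and 147 CPM in the control siRNA libraries. Its groups did not overlap either, and its log2 fold change was -0.34 (95% interval -0.58 to -0.09, adjusted p = 0.597, edgeR).

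Over the target list, then, CTNNB1 was above and HMGA2 and MYC were below all control siRNA libraries, 1 and 2 of 12, against 6.64% and 5.87% of all tested genes. Without circ siRNA library 3 and control siRNA library 1, all 3 were called in edgeR, CTNNB1 at 0.51 (adjusted p = 0.00125), HMGA2 at -0.31 (adjusted p = 0.0171) and MYC at -0.36 (adjusted p = 0.0072). In that fit 14.8% of all tested genes were called. The libraries left out were picked from these same values, so these calls are descriptions. The direction was the same in each of the fits that left out 1 library, and none of those fits called them.

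mRNAs described as YTHDF2 targets, 5 tested of 6, had 0 calls and a median log2 fold change of 0.12. MAP4K4, a stress-pathway kinase, averaged 775 ± 44.4 CPM in circ siRNA cells and 652 ± 50.9 CPM in control siRNA cells (SD, n = 3 each), and its log2 fold change was 0.25 (adjusted p = 0.804, edgeR). Its circ siRNA libraries lay above all control siRNA libraries, as they did for 6.64% of all tested genes. KDM6B, an LPS-inducible histone demethylase, had 0.31 (adjusted p = 0.876), and IFNB1, which encodes interferon beta, had 0.12 (adjusted p = 0.932). Leaving out circ siRNA library 3 brought KDM6B to 0.11 and IFNB1 to -0.19. Without both that library and control siRNA library 1, MAP4K4 was called at 0.27 (adjusted p = 0.0235, edgeR) and KDM6B at 0.31 (adjusted p = 0.0421). Of all genes tested in that fit, 14.8% were called. TAL1 had 2 counts in all and was not tested.

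**Figure D5:**
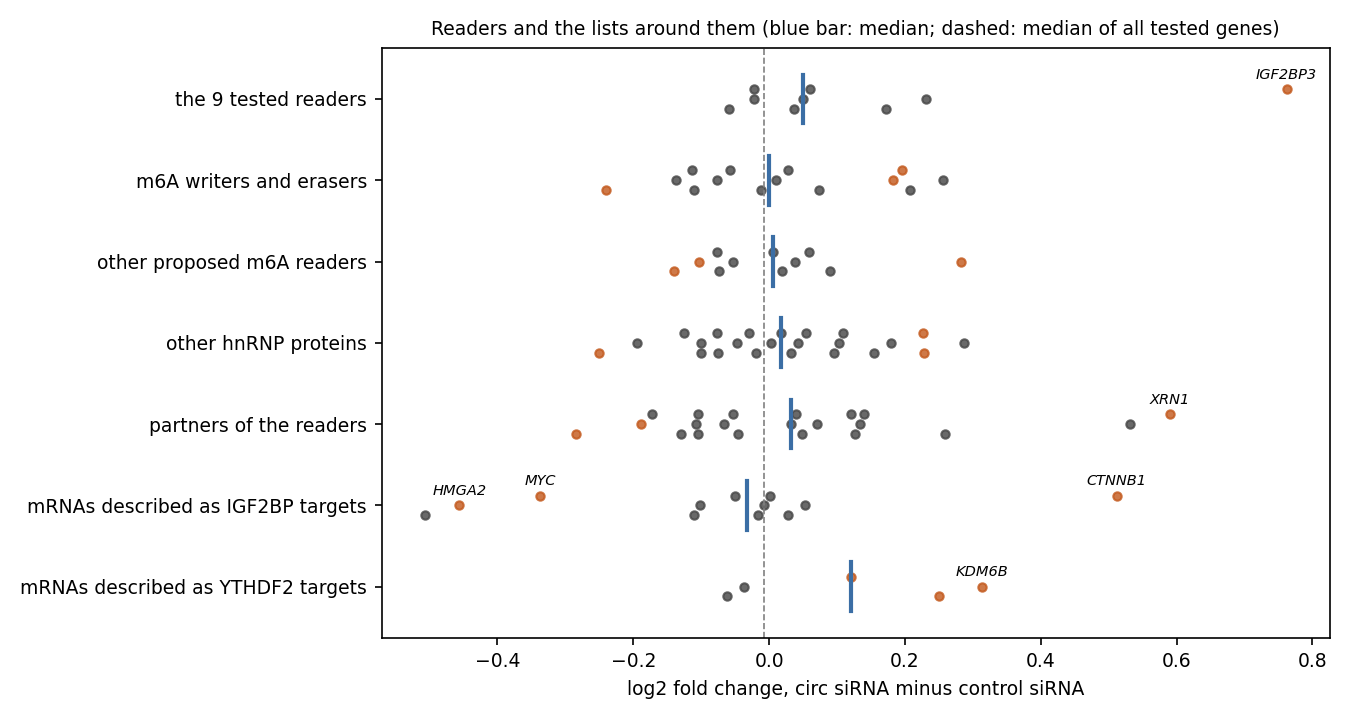
Log2 fold change, circ siRNA minus control siRNA, of the 9 tested readers and of the tested genes of 6 lists around them; each point is a gene, orange points are IGF2BP3 and the 3 genes of each list with the smallest unadjusted p, blue bars are list medians and the dashed line is the median of all tested genes. CTNNB1 (0.51), HMGA2 (-0.46), MYC (-0.34) and the unlabelled FOXM1 (-0.51) lie far out among the described IGF2BP targets, and no point passed the adjusted threshold.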

How the data were processed

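The 6 THP-1 libraries were paired-end and poly-A selected, per the labels' protocols. The submitters' processing notes name CASAVA, cutadapt, HISAT2 and build GRCh38. Tool versions, the program that counted reads, whether it used strand, and the gene annotation were not given in the sources used here. A table deposited by the authors gives raw read counts per gene and library, which were tested as deposited. The authors' FPKM values, scaled to the library totals of the same table (recomputed values differed by at most 3.8e-11), served only to recheck the order of levels. They rest on the same counts and lengths, so this recheck is not independent.

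The main test was edgeR 4.0.16 (R 4.3.3) with its two-sided quasi-likelihood F test over all 6 libraries, with a group term alone, TMM scaling and a filterByExpr minimum count of 10. Each log2 fold change is circ siRNA over control siRNA. A gene was called when its Benjamini-Hochberg adjusted p, over 12469 tested genes, was under 0.05. Of the listed genes, 3520 had no count in any library. The test was checked on simulated data. Shares within a family were compared with exact permutation tests in scipy 1.17.1. Limma 3.58.1 (voom) and DESeq2 1.42.0 were alternatives, as were other scalings and filters, leaving out each library, leaving out the 2 libraries that stand apart, a replicate block, and offsets for gene length. Offsets for length and GC content together were added after seeing the data.

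Replicate libraries differed beyond counting error (chi-square per gene of at least 5.73), so none was counted as a duplicate. The most alike pairs were circ siRNA libraries 1 and 2 (6.27) and control siRNA libraries 2 and 3 (5.73). Other pairs within a group had 37.4 to 68.4. The fit without circ siRNA library 3 and control siRNA library 1, which were picked by their values in these data, keeps only the most alike pairs. Depth was 14793902 to 16736972 counts, and intervals from counts cover counting error only. The readers and all gene lists were chosen with earlier results of these data known. Besides the 10 readers, the text names the 3 genes with the smallest unadjusted p in each list, any list gene called with all 6 libraries, and the 3 genes nearest in pattern to the reader with the smallest p. FOXM1, CNOT1, MKI67, TK1, FSCN1 and HK2 fall in none of these classes and were named after their values were seen. CD68, the other cell markers, MALSU1 and CBX3 are named to check the libraries and overlaps.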

Additional observations from a re-analysis of the deposited data

How the results depend on the processing

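The call of 0 readers lower was kept under all alternatives run, and that of 0 readers higher under all but the fit without circ siRNA library 3 and control siRNA library 1, which called 1 (YTHDF3). Of 160 alternative values of the readers, 140 kept direction and side of the threshold, 19 changed sign below it and 1 passed it anew; of 324 values of the named list genes, 314 kept both, 3 changed sign and 7 passed anew. In the fit without both libraries 919 genes were called higher and 926 lower, and 7 and 5 of the listed pathway genes, against 0 higher and 1 lower gene with all 6 libraries. DESeq2 called 59 genes higher and 22 lower, length offsets 1 and 5, and length with GC offsets 6 and 6. Library totals alone, limma-voom, an adjusted p under 0.01 and every fit leaving out 1 library called 0 lower genes, and no low-count filter called 2. The causes were not tested.

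Signs turned, below the threshold, for 4 readers, 1 list gene and 2 shares. IGF2BP2 was 0.16 without both libraries and -0.11 to 0.15 when leaving out 1. YTHDF1 was 0.0789 without both, 0.0129 with length offsets, 0.00098 with length and GC offsets, and -0.0623 to 0.0294 when leaving out 1. YTHDC1 was -0.0072 with length offsets, -0.0122 with length and GC offsets and -0.0303 to 0.116 when leaving out 1. HNRNPA2B1 was -0.0147 with length offsets and -0.019 with length and GC offsets. IFNB1 was -0.34 without both and -0.19 to 0.28 when leaving out 1. The IGF2BP1 share differed by -0.0231 to 0.0361 percentage points and the YTHDF2 share by -1.64 to 1.02 when leaving out 1.

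Replicate numbers did not pair the libraries: deviations correlated at -0.17, 0.46 and -0.37 for numbers 1 to 3, and not every library was closest to its own number. A replicate block called 0 genes higher and 0 lower (0 lower also with length offsets, and with length and GC offsets) and changed no reader's call, with IGF2BP3 at 0.79 (adjusted p = 0.948, edgeR) and YTHDF3 at 0.19 (adjusted p = 0.948). With the block, length offsets gave 0.0199 for YTHDF1, -0.00726 for YTHDC1 and -0.0118 for HNRNPA2B1, and length and GC offsets gave 0.00704, -0.0121 and -0.0142. IGF2BP3 passed neither the minimum count of 20 nor the filter without both libraries, and IGF2BP1 did not pass the main one, so depth limits these readers. The alternative for a table without counts did not apply.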

Other observations

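A further 4 genes described as IGF2BP targets were called, of the settings run, only without circ siRNA library 3 and control siRNA library 1. MKI67, a marker of cycling cells, had a log2 fold change of -0.10 and TK1, thymidine kinase, of 0.00143 with all 6 libraries. Without both libraries, MKI67 was -0.62 (adjusted p = 0.0146, edgeR) and TK1 was -0.49 (adjusted p = 0.0422). FSCN1, an actin-bundling protein, was -0.11 with all 6 libraries and -0.34 (adjusted p = 0.00857) without both. HK2, which encodes hexokinase 2, was 0.05 with all 6 and 0.27 (adjusted p = 0.0338) without both. These genes were named after their values were seen. In that fit 12 of 86 tested pathway genes were called (14.0%), beside 14.8% of all tested genes. That share is of all lists together, and the calls were not spread evenly over them. Besides the 4 above, they were CTNNB1, HMGA2 and MYC of the same list, and XRN1, CNOT1, HNRNPL, MAP4K4 and KDM6B of the others. The described IGF2BP targets thus held more calls than their part of the tested genes, in a list chosen with earlier results known.

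The summed level of 4 cycling-cell markers ranged from 50.2 to 106 CPM over the circ siRNA libraries and from 54.9 to 71.0 CPM over the control siRNA libraries. All marker values in this paragraph are CPM of the library totals, without TMM scaling. Neutrophil markers summed to 87.4 to 106 CPM in circ siRNA libraries and 60.2 to 93.4 CPM in control siRNA libraries. Most of this was AZU1 and CSF3R, whereas MPO averaged 0.185 CPM in circ siRNA cells and 0.0837 in control siRNA cells, and CEACAM8 had 0 counts. Epithelial markers stayed below 1 CPM in every library. T or NK cell markers summed to 3.58 to 4.18 CPM in circ siRNA libraries and 3.07 to 6.13 CPM in control siRNA libraries, B cell markers to 0.896 to 1.49 CPM in circ siRNA libraries and 0.663 to 2.0 CPM in control siRNA libraries. Fibroblast markers summed to 10.8 to 15.7 CPM in circ siRNA libraries and 13.0 to 17.8 CPM in control siRNA libraries. Nearly all of it was COL1A1, with a mean of 13.2 CPM in circ siRNA cells and 15.1 in control siRNA cells. All libraries came from a single cell line, THP-1, so these sums are levels of marker genes in that line and no measure of other cell types.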
